A study of Homo sapiens with 3 samples.

Results

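The genes of the E2F transcription factors and of the pocket proteins that bind them were followed in the line MDA-MB-231, derived from a human triple-negative breast cancer, after small interfering RNAs (siRNAs) were directed at the long non-coding RNA TMPO-AS1. The 10 genes were E2F1, E2F2, E2F3, E2F4, E2F5, E2F7, E2F8, RB1, RBL1 and RBL2, of 33616 genes with a value. They were chosen by name, with earlier results of these data known. Each gene was represented by its brightest probe set among those annotated with exactly 1 symbol, and the signal of the control array was subtracted from that of each siRNA array. RNA was taken 48 hours after transfection. The siControl group was 1 array of cells given a control siRNA. The siTMPO-AS1 group was 2 arrays, 1 for siTMPO-AS1 #1 and 1 for siTMPO-AS1 #2. All cells were transfected, so no array represents cells without an siRNA. No siRNA had a second array, and each array came from cells given a different siRNA. The spread between the siRNA arrays therefore holds any difference between the siRNAs together with culture and technical differences, which cannot be told apart. The labels do not say whether the cells were transfected in separate experiments.

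E2F factors bind promoters of genes needed for DNA synthesis and cell division. E2F1, E2F2 and E2F3 mainly activate them, E2F4 and E2F5 mainly repress them together with pocket proteins, and E2F7 and E2F8 are atypical repressors that bind DNA without a DP partner and without a pocket protein. The pocket proteins are the retinoblastoma protein (RB1), p107 (RBL1) and p130 (RBL2). They hold E2F factors inactive in resting and early G1 cells, until cyclin-dependent kinases phosphorylate them and release the E2F factors, which then switch on the G1/S genes, among them several E2F genes and RBL1 themselves.

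Since several of these genes are known E2F targets, their promoters are shown first. RefSeq windows (build GRCh38.p14) of 300 bases, 250 before and 50 after a transcription start, were read for 7 of the 10 genes, with 9 windows in all because E2F3 and RBL2 have a second start. No window was used for E2F5, E2F8 or RB1. The RB1 window in the table begins at a start 172699 bases inside the gene, so it was left out. Both strands were searched for the E2F letters TTTCCCGC, TTTGGCGC, TTTCGCGC and TTTGCCGC, for the CHR element (TTTGAA or TTCGAA), for CCAAT and for the GC box GGGCGG. E2F letters were found for 4 of the 7 genes (E2F1, E2F2, E2F3 and RBL1), whereas 3.99% of the 27305 genes with a window in the table held them. A CCAAT box was held by 39.7% of those genes, a CHR element by 19.5% and a GC box by 48.3%. Known E2F targets are among the 7 genes, so their share with E2F letters is no finding. The shares over all genes kept every window, also those at internal starts. A match of letters is a description of the sequence and not a measured binding site.

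The 4 windows below belong to the 3 genes that were at least 1.5-fold lower with both siRNAs (RBL1, RBL2 and E2F7) and to E2F1, the founding member of the family. Each is written 5′ to 3′ on the strand of its gene, with E2F letters and CCAAT boxes (ATTGG on the other strand) in capitals. The windows are chr20:37095948-37096247 (minus strand, RBL1), chr16:53434221-53434520 (plus strand, first start of RBL2), chr12:77065520-77065819 (minus strand, E2F7) and chr20:33686336-33686635 (minus strand, E2F1).
RBL1: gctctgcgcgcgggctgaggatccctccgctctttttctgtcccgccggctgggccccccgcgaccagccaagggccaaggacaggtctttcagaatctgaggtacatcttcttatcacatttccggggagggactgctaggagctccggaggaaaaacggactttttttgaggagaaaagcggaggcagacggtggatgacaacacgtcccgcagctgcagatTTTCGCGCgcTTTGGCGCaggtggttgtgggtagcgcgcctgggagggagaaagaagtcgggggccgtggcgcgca
RBL2: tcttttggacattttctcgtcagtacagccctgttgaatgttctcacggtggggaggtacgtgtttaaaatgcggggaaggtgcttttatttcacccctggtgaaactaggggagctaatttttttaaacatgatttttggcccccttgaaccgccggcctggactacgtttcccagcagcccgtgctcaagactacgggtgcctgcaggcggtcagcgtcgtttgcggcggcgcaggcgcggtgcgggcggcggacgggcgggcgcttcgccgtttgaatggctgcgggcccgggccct
E2F7: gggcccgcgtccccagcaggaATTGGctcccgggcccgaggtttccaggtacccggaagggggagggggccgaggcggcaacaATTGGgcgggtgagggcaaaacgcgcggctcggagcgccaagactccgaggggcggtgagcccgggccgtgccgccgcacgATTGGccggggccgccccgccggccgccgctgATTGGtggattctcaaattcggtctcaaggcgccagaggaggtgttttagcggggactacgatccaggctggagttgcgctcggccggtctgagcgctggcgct
E2F1: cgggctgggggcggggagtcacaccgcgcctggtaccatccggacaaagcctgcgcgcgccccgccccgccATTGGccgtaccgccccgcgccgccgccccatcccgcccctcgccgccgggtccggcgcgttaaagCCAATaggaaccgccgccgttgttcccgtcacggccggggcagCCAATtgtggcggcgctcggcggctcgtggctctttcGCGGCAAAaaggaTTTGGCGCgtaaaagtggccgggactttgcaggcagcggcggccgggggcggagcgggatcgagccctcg

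RBL1 carried 2 E2F matches next to each other, beginning 26 and 16 bases before the start, and E2F1 carried 2, beginning 33 and 20 bases before it. E2F1 and E2F7 also held 3 and 4 CCAAT boxes. One of the CCAAT boxes of E2F7 overlaps a GC box. The first RBL2 window held none of the letters in capitals, a CHR match beginning 25 bases after the start and 2 GC boxes. The E2F matches of E2F2 and of the first start of E2F3 began 42 and 53 bases before the start.

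**Figure D1:**
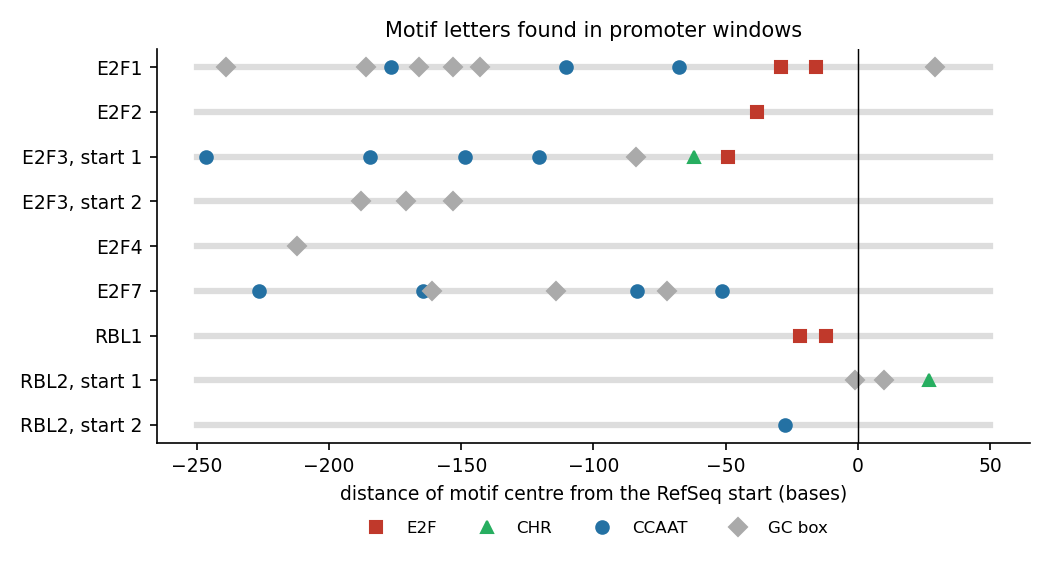
Positions of motif letters in 9 RefSeq promoter windows of 7 genes. The horizontal axis is the distance in bases of the motif's centre from the transcription start, grey lines are the windows and symbols are matches on either strand; the E2F matches of E2F1, E2F2, E2F3 and RBL1 all lie in the last bases before the start.

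Of the pocket proteins, RBL1 and RBL2 were lower on both siRNA arrays and RB1 was not. The log2 signal of RBL1, which encodes p107, was 14.51 on the control array, 11.18 after siTMPO-AS1 #1 and 13.46 after siTMPO-AS1 #2. The siRNA arrays therefore lay 10.1-fold and 2.07-fold below control, and the array of siTMPO-AS1 #1 stood apart from both others. The log2 ratios were -3.33 and -1.05, and only 0.440% and 3.41% of the 16808 genes tested had ratios as low or lower. RBL2, which encodes p130, the pocket protein of resting cells, measured 9.77 in control cells, then 8.06 and 8.79 in the same order of siRNAs. Both siRNA arrays were below control, by 3.28-fold and 1.98-fold (log2 ratios -1.71 and -0.98). The array carries 23 background control probe sets, whose highest signals were 7.20 (siControl), 6.67 (siTMPO-AS1 #1) and 8.52 (siTMPO-AS1 #2). The highest was the same probe set on every array. The medians of these controls were far lower, at 2.61, 2.66 and 2.67, so the highest is a strict limit. RBL2 lay above the highest of its own array each time, but its signal of 8.06 is under the 8.52 of another array, so the size of its fold is uncertain. RB1, the retinoblastoma tumour suppressor gene, measured 13.93 in control cells, then 14.56 and 13.80. Its ratios were of opposite sign, 0.63 and -0.12, and the control array lay between the siRNA arrays. In bulk RNA of this kind, fewer cells with a transcript and less of it per cell cannot be told apart.

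The spread between the siRNA arrays limited what could be called. The limma fit gave RBL1 a mean log2 ratio of -2.19 (SE 1.05, adjusted p = 1.00, lower on 2 of 2 arrays) and RBL2 one of -1.35 (SE 0.53, adjusted p = 1.00, lower on 2 of 2 arrays). For RB1 it was 0.25 (SE 0.54, limma adjusted p = 1.00). The signal with siTMPO-AS1 #1 minus that with siTMPO-AS1 #2 was -2.28 for RBL1, larger in size than the mean ratio itself, and -0.73 for RBL2. In the same fit 0 of the 9 members tested passed an adjusted p of 0.05, and 0 had an unadjusted p under 0.05. Over all 16808 genes limma called 0 (0%), while 261 had an unadjusted p under 0.05. With 1 residual degree of freedom, a p that misses the threshold does not show that a gene stayed the same.

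Among the activator E2F genes, E2F3 was the one with a signal far above the brightness filter. Its log2 signal was 9.69 on the control array, against 9.37 (siTMPO-AS1 #1) and 8.65 (siTMPO-AS1 #2). That is 1.24-fold and 2.06-fold under control (ratios -0.31 and -1.04). E2F3 was the only gene of the 10 that passed 1.5-fold with siTMPO-AS1 #2 and not with siTMPO-AS1 #1 in the lower direction. Its signal of 8.65 is only just above the highest background control of that array, 8.52, so the size of the fold is uncertain. E2F1 had 4.98, 4.42 and 5.37 in the same order, so the control array lay between the siRNA arrays (ratios -0.57 and 0.38). A second, dimmer probe set named E2F1 gave 2.92, 3.02 and 3.44, with ratios of 0.10 and 0.52, so the probe sets disagree on the sign with siTMPO-AS1 #1. E2F2 had 4.22, 3.69 and 3.99 (ratios -0.53 and -0.23), and its mean lay below 4.42, the median over genes that served as the brightness filter. Over the 3 arrays the background control probe sets ran from 2.08 to 8.52. On each array E2F1 and E2F2 lay under the highest of them, whereas the other 8 genes lay above it on all 3. No detection calls were used here, so by the highest control E2F1 and E2F2 cannot be told from background. Both lay above the median control of each array (2.61, 2.66 and 2.67).

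The repressor genes E2F4 and E2F5 passed 1.5-fold in the lower direction with siTMPO-AS1 #1 and not with siTMPO-AS1 #2. E2F4, a partner of p130 and p107, gave log2 signals of 10.02 (siControl), 8.36 (siTMPO-AS1 #1) and 9.997 (siTMPO-AS1 #2). The array of siTMPO-AS1 #2 was thus close to control (ratio -0.02), and that of siTMPO-AS1 #1 stood 3.15-fold below it (ratio -1.66). That signal of 8.36 is above the highest background control of its own array and under that of siTMPO-AS1 #2, so the size of the fold is uncertain. E2F5 had 10.26, 9.09 and 10.88, which is 2.26-fold lower with siTMPO-AS1 #1 and 1.54-fold higher with siTMPO-AS1 #2 (ratios -1.18 and 0.62). The second ratio was under 1.5-fold once the arrays were centred on their medians or quantile normalized again. As deposited, E2F5 was the 1 gene of the 10 past 1.5-fold in opposite directions, as were 3.30% of all genes tested. The mean ratios were -0.84 for E2F4 (SE 0.81) and -0.28 for E2F5 (SE 0.87), both with a limma adjusted p of 1.00. The difference between the siRNAs has no test, since each was measured on 1 array.

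Of the atypical E2F genes, E2F7 was lower with both siRNAs and E2F8 with siTMPO-AS1 #1 by less than 1.5-fold. E2F7, itself induced by E2F1 and then repressing it, gave log2 signals of 14.23 (siControl), 13.40 (siTMPO-AS1 #1) and 13.64 (siTMPO-AS1 #2). The siRNA arrays lay close together and 1.78-fold and 1.51-fold below control (ratios -0.84 and -0.59), the second of them just past the threshold of 0.585. The mean ratio was -0.71 (SE 0.45, limma adjusted p = 1.00). With an SD of 0.17 between its siRNA arrays, E2F7 varied least among the members. E2F8 had 11.61, 11.11 and 11.66, so that siTMPO-AS1 #2 was close to control (ratio 0.06) and siTMPO-AS1 #1 was 1.41-fold lower (ratio -0.49).

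**Figure D2:**
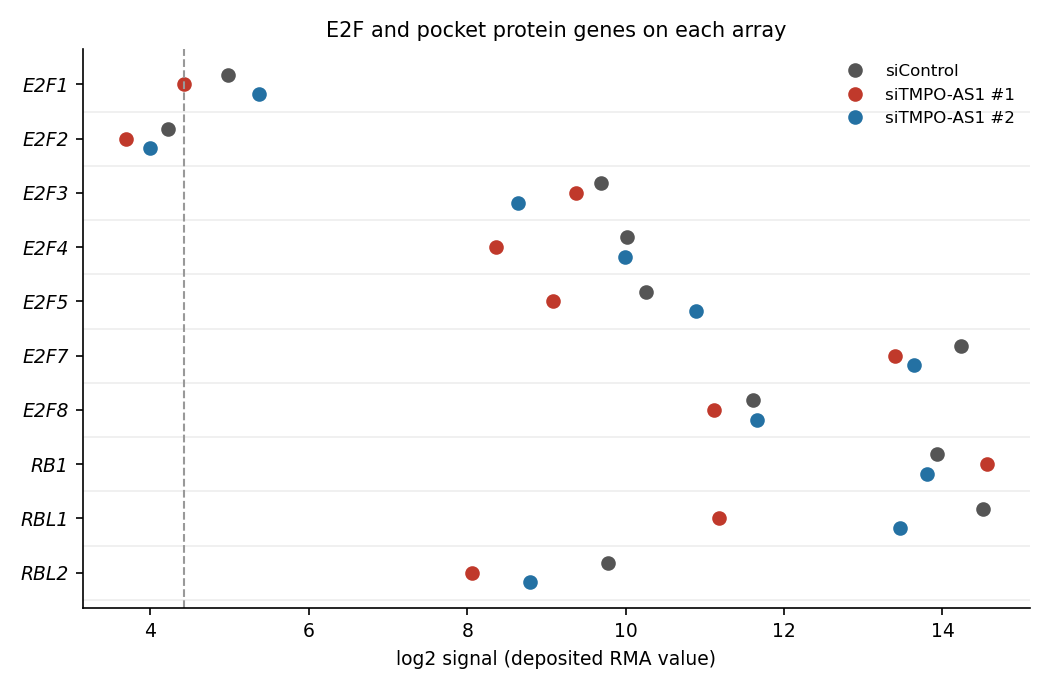
Log2 signal of each gene on the 3 arrays. Each point is 1 array, and the dashed line is the brightness filter at 4.42; RBL1 spans from 11.18 to 14.51, and for RBL1, RBL2, E2F7, E2F4, E2F3 and E2F2 the control array is the highest of the 3.

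Counted over the 10 genes, 5 were at least 1.5-fold lower with siTMPO-AS1 #1 (E2F4, E2F5, E2F7, RBL1 and RBL2) and 1 was higher (RB1). Of all genes tested, 18.8% were lower and 16.6% higher by that rule. With siTMPO-AS1 #2, 4 were lower (E2F3, E2F7, RBL1 and RBL2) and 1 higher (E2F5), against 10.4% and 16.1% of genes tested. With both siRNAs 3 were lower (RBL1, RBL2 and E2F7) and 0 higher, against 4.07% and 5.42% of genes tested. By any amount, 6 of the 10 were under control on both siRNA arrays and 0 over it. Among the 9 past the brightness filter 5 were under it on both (55.6%), beside 25.4% of genes tested. Both ratios of a gene share the single control array, so a control signal that happened to be high lowers both. The 10 genes were chosen with earlier results of these arrays known, so their counts are no independent evidence of a direction. The median ratios of the 10 genes were -0.70 (siTMPO-AS1 #1) and -0.18 (siTMPO-AS1 #2), beside 0.02 and 0.09 over all genes tested. For the 9 members past the brightness filter the medians were -0.84 and -0.12.

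**Figure D3:**
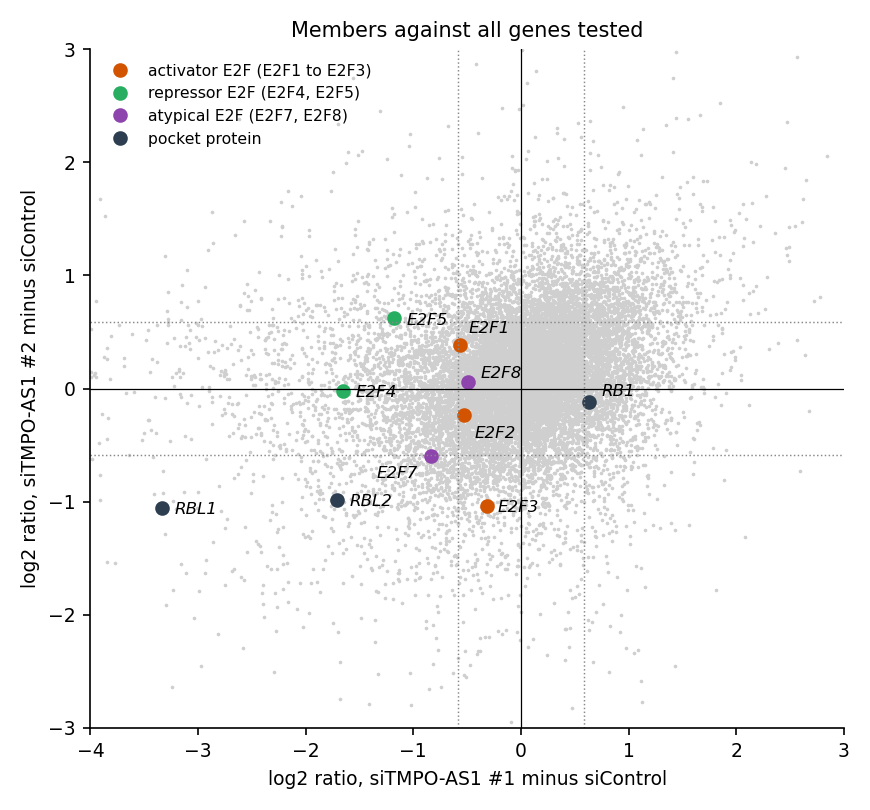
Log2 ratio with siTMPO-AS1 #1 (horizontal axis) against that with siTMPO-AS1 #2 (vertical axis). Grey points are genes tested (49 lie outside the plotted range), coloured points the 10 genes by role, and dotted lines mark 1.5-fold; RBL1, RBL2 and E2F7 lie in the lower left field past both lines, RB1 and E2F5 on the other sides.

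The genes nearest to RBL1 in their pair of ratios, by Euclidean distance over the 16011 named genes tested, were NEDD4 (-3.23 and -0.99, distance 0.12), the pseudogene CBX1P2 (-3.21 and -1.07, 0.12) and the centromere protein gene CENPU (-3.33 and -0.92, 0.13). Only 10 genes lay within a distance of 0.5 of RBL1. For RBL2 there were 168, the nearest being MGME1 (-1.70 and -0.99), RHBDL2 (-1.72 and -0.96) and ANKRD13C (-1.69 and -0.96). These pairs rest on 3 arrays and a shared control. CBX1P2 may also report RNA of its parent gene.

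None of the tested partners of E2F and pocket proteins passed 1.5-fold with both siRNAs, though LIN52 missed it narrowly. Of all genes tested, 4.07% were lower and 5.42% higher with both. Of 13 genes listed for the DP partners and the DREAM and MuvB complexes, which join p130 or p107 to E2F4 in resting cells and MYB proteins in dividing ones, 12 were tested. Their medians were 0.17 and -0.18. With siTMPO-AS1 #1, 2 were at least 1.5-fold lower and 0 higher, beside 18.8% and 16.6% of all genes tested. With siTMPO-AS1 #2 the counts were 0 and 2, beside 10.4% and 16.1%. LIN52, the MuvB subunit whose phosphorylation by DYRK1A recruits p130, had 9.25 on the control array and 9.83 and 10.13 on the siRNA arrays (ratios 0.58 and 0.88). RBBP4, the histone-binding subunit of MuvB, had 10.84, 9.66 and 10.31 (ratios -1.18 and -0.53). The DP partner genes TFDP1 (-0.53 and -0.18) and TFDP2 (0.55 and 0.34), and E2F6 (-1.32 and 0.27, under the highest background control on all 3 arrays), a repressor of the family that does not bind pocket proteins, are named for their role after their values were seen.

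Upstream of the pocket proteins, the kinases, cyclins and inhibitors went both ways. Of 22 listed genes 19 were tested, with medians of -0.36 and -0.19. With siTMPO-AS1 #1, 7 were lower and 4 higher by 1.5-fold, beside 18.8% and 16.6% of all genes tested. With siTMPO-AS1 #2, 2 were lower and 3 higher, beside 10.4% and 16.1%. With both siRNAs 1 was lower and 1 higher, beside 4.07% and 5.42%. The lower one was SKP2, the F-box protein that marks the CDK inhibitor p27 for degradation, with 13.67 in control cells against 11.41 and 11.73 (ratios -2.26 and -1.93). The higher one was the D-type cyclin gene CCND2, with 7.06 against 7.94 and 7.93 (ratios 0.87 and 0.87), of which the first and the last lie under the highest background control of their array. CDK6, a kinase that phosphorylates pocket proteins with D-type cyclins, went opposite ways, with 10.46 (siControl), 8.49 (siTMPO-AS1 #1) and 11.81 (siTMPO-AS1 #2). Its 8.49 is above the highest background control of its own array and under the 8.52 of siTMPO-AS1 #2, so that fold is uncertain in size. CDKN2A, named after its values were seen because MDA-MB-231 cells are known to have lost it by deletion, had 2.20, 2.36 and 2.33 and did not pass the brightness filter.

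Among G1/S genes that E2F factors bind, most were lower with siTMPO-AS1 #1 and fewer with siTMPO-AS1 #2. The list was written with earlier results of these arrays known, so it is no independent evidence of a direction. Of 46 genes 42 were tested, with medians of -1.13 and -0.17. With siTMPO-AS1 #1, 31 were at least 1.5-fold lower and 0 higher, beside 18.8% and 16.6% of all genes tested. With siTMPO-AS1 #2, 11 were lower and 2 higher, beside 10.4% and 16.1%. With both siRNAs 11 of the 42 were lower and 0 higher, beside 4.07% and 5.42%. In opposite directions 1 gene passed, beside 3.30%. DTL, the substrate receptor of a ubiquitin ligase that removes the licensing factor CDT1 in S phase, had 13.62 (siControl), 11.25 (siTMPO-AS1 #1) and 12.05 (siTMPO-AS1 #2). The next by the smaller of their ratios were MCM6 (-1.45 and -1.45) of the replicative helicase, MCM10 (-1.66 and -1.34), which activates it, and the checkpoint mediator CLSPN (-1.13 and -1.63). Of the 11 genes lower with both, MCM10 and CDCA7 lay under the highest background control on all 3 arrays, and GINS3 on both siRNA arrays. MCM6, CHAF1A and BRCA1 lay under it on the array of siTMPO-AS1 #2. The ratios of these genes are uncertain in size, and so is their place in the count of 11. UHRF1, which guides maintenance DNA methylation, was the gene in opposite directions, with 8.31, 6.70 and 10.41. Its signal of 6.70 is only just above the highest background control of that array, 6.67. Both 8.31 and 6.70 are under the 8.52 of siTMPO-AS1 #2, so the size of its ratios is uncertain. E2F letters were present in promoter windows of 24 of the 40 listed genes that had one. The list was drawn from known E2F targets, so that share is no finding.

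G2/M genes, whose CHR elements are bound by DREAM in resting cells and by MuvB with MYB proteins and FOXM1 in dividing cells, had medians of 0.09 and -0.28 over 26 genes tested of 26. With siTMPO-AS1 #1, 5 were lower and 4 higher by 1.5-fold, beside 18.8% and 16.6% of all genes tested. With siTMPO-AS1 #2, 3 were lower and 0 higher, beside 10.4% and 16.1%. The share of all genes tested that were lower with both was 4.07%. The cyclin F gene CCNF was the 1 gene lower with both (6.41 in control cells against 5.04 and 5.63), with all 3 signals under the highest background control of their array. The mitotic kinesin gene KIF20A went opposite ways, with 12.45, 13.24 and 11.81. The difference between the G1/S and G2/M lists was not tested.

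**Figure D4:**
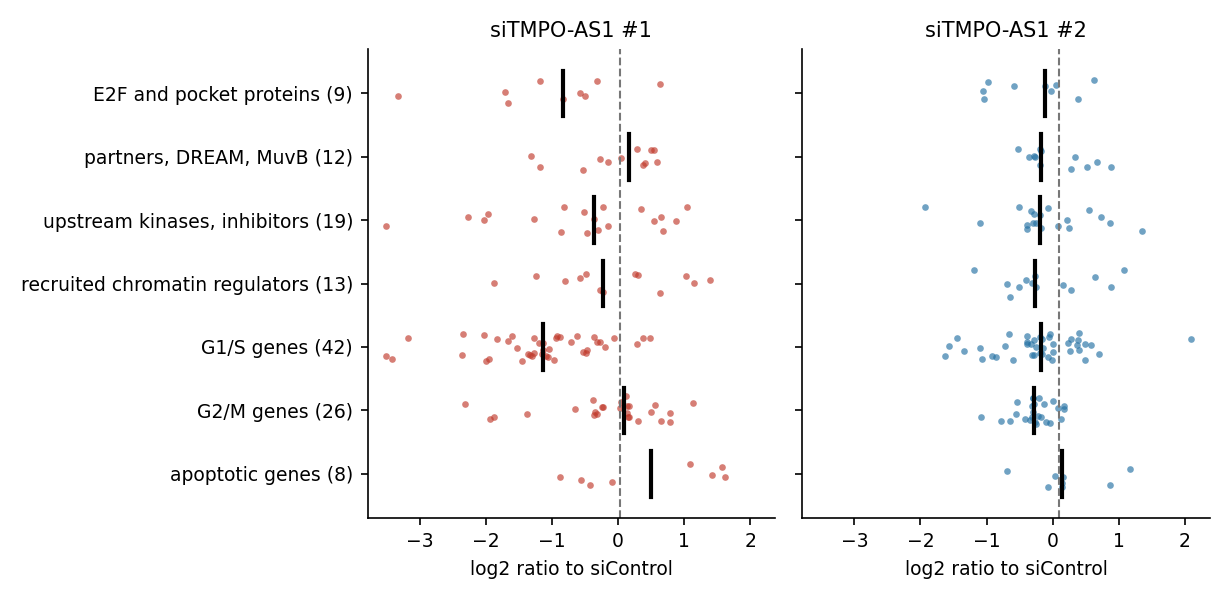
Log2 ratios of the tested genes of each list with siTMPO-AS1 #1 (left) and siTMPO-AS1 #2 (right). Each point is a gene, black bars are list medians, dashed lines are medians over all genes tested, and the number of genes stands in brackets; the bar of G1/S genes is at -1.13 on the left and -0.17 on the right.

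The target and the cell type were checked on the same arrays. The signal of TMPO-AS1 was 4.83 (siControl), 4.37 (siTMPO-AS1 #1) and 4.28 (siTMPO-AS1 #2), lower with both by less than 1.5-fold (ratios -0.46 and -0.55). All of these signals lie under the highest background control of their array, so the size of the knockdown is not shown by them. The sense gene TMPO had 14.28, 13.39 and 13.76 in the same order, lower on both siRNA arrays (ratios -0.89 and -0.52). The cause of that was not tested. The mesenchymal markers VIM, CD44, AXL, CAV1 and MSN all passed the brightness filter, and of 6 genes low in this line ESR1, PGR, CDH1 and ESRP1 did not, while ERBB2 and EPCAM did. Of 4 fibroblast and 4 immune markers 3 and 2 passed it, among them CD68 with 11.14 in control cells. Some markers moved by more than 1.5-fold: the ratios were 0.34 and 2.30 for EPCAM, 0.53 and -1.39 for CAV1, -1.27 and -0.09 for AXL, and -1.03 and 0.09 for MSN. They were 1.25 and -0.18 for ERBB2, 1.18 and -0.35 for CD68, -0.18 and 0.73 for TYROBP, 0.19 and 1.22 for COL1A1, 1.13 and 0.62 for LUM, and -0.29 and -0.63 for PDGFRB. The signals of TYROBP, LUM and PDGFRB were under the highest background control on all 3 arrays, and that of ERBB2 was with siTMPO-AS1 #2. The size of their ratios is therefore uncertain, and TYROBP, LUM and PDGFRB cannot be told from background by that limit. Below the brightness filter, ESRP1 (ratios -0.74 and 1.34) and PGR (0.37 and 0.95) also moved past 1.5-fold with at least 1 siRNA. The part of all these markers and of other cells in the results was not tested. Array medians were 3.73, 3.75 and 3.75 in the order above.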

How the data were processed

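RNA of 1 control and 2 siRNA arrays was measured on an Affymetrix platform, from 150 ng of total RNA per array per the labels. The authors deposited log2 signals, which the submitters' processing notes credit to RMA and Affymetrix Expression Console. The sources used here give no version, annotation or genome build. Values above a log2 signal of 16 occur for 1144 of 138745 probe sets on all arrays and for 0 of the 10 members, so folds are those of the deposited scale. Arrays have no read depth, and their number limits the precision.

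From these values, used without further scaling, genes were formed from the 36176 probe sets with exactly 1 symbol in the platform annotation (1119 had several and 101450 none), taking the brightest of several probe sets. The gene identifiers of all 10 members matched RefSeq. The 16808 genes with a mean at or above the median over genes (4.42) were fitted in R 4.3.3 by limma 3.58.1 (lmFit, then eBayes). P-values are two-sided and were adjusted over all genes tested by the Benjamini-Hochberg method, with a threshold of 0.05. The residual degrees of freedom were 1, the prior ones 3.28, and the prior SD was 0.41. Each siRNA against control, 1 array each, has no test and was described by a rule of 1.5-fold. The members and lists were chosen with earlier results of these data known. All 10 members were named. Of each list, up to 4 genes past 1.5-fold the same way with both siRNAs and up to 2 in opposite directions were named by the smaller of their ratios, or, failing both, the 2 with the largest such value. Alternatives were median centring, repeated quantile normalization, the mean of probe sets, other brightness filters, an intensity trend, a fold of 2 and leaving out each siRNA array.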

Additional observations from a re-analysis of the deposited data

How the results depend on the processing

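Before centring, the medians of the siRNA arrays over the genes tested lay at -0.076 and 0.056 relative to control. With median centring, or with repeated quantile normalization, 0 members were 1.5-fold higher with siTMPO-AS1 #2, since E2F5 dropped under the threshold, and the other 5 counts of members stayed within 1.5 times. At a fold of 2, 1 member was lower with both siRNAs (RBL1), 0 were higher with siTMPO-AS1 #1, 2 were lower and 0 higher with siTMPO-AS1 #2. With either siRNA array left out, 4 to 5 members were lower in place of 3, and 1 was higher in place of 0. The mean ratio of 4 genes changed sign with 1 array left out: it ran from -0.57 to 0.38 for E2F1, -1.18 to 0.62 for E2F5, -0.49 to 0.06 for E2F8 and -0.12 to 0.63 for RB1. With the mean of its probe sets E2F1 had 0.11 in place of -0.09. The other 53 values of single members under alternatives that kept all arrays had the same sign, moved by at most 0.04, and 0 passed the limma threshold (lowest adjusted p 1.00). Over all genes limma called 0 under each of 7 settings, with 88 to 787 genes at an unadjusted p under 0.05. The cause of these differences was not tested, except that a higher fold by construction keeps fewer genes.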

Other observations

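Chromatin regulators that pocket proteins recruit to E2F promoters were tested for 13 of 16 genes, with medians of -0.23 (siTMPO-AS1 #1) and -0.27 (siTMPO-AS1 #2). By 1.5-fold, 3 were lower and 4 higher with siTMPO-AS1 #1, beside 18.8% and 16.6% of all genes tested. With siTMPO-AS1 #2, 3 were lower and 3 higher, beside 10.4% and 16.1%. With both, 1 was lower and 2 higher, beside 4.07% and 5.42%. The histone demethylase gene KDM5A, first known as an RB-binding protein, gave a log2 signal of 6.75 in control cells against 7.91 and 7.64, the first and the last of them under the highest background control of their array. The Polycomb methyltransferase gene EZH2 had 12.03 against 13.06 and 12.68. The SWI/SNF ATPase gene SMARCA2 was lower with both (ratios -1.23 and -0.65). Its paralog SMARCA4 (ratios 0.63 and -0.70) and the histone deacetylase gene HDAC1 (1.40 and -1.19) went opposite ways.

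Apoptotic genes that E2F1 is known to bind had medians of 0.50 and 0.14 over 8 of 12 genes. By 1.5-fold, 1 was lower and 4 higher with siTMPO-AS1 #1, beside 18.8% and 16.6% of all genes tested. With siTMPO-AS1 #2, 1 was lower and 2 higher, beside 10.4% and 16.1%. The share of all genes tested that were higher with both was 5.42%. PMAIP1, which encodes the BH3-only protein NOXA, was the 1 gene higher with both (9.97 in control cells against 11.40 and 11.14). APAF1, the scaffold of the apoptosome, went opposite ways (10.42, 11.51 and 9.72).

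A search of promoter windows, chosen after the data were seen, gave 624 tested genes with E2F letters and 9135 without. Of those with the letters 30.8% were at least 1.5-fold lower with siTMPO-AS1 #1 and 13.8% with siTMPO-AS1 #2, beside 22.7% and 11.2% of those without. Without the members and the G1/S list, 598 genes with the letters remained, of which 28.9% and 12.9% were lower. For CHR elements, whose letters 1618 tested genes held, the shares were 24.0% and 13.4%, beside 23.0% and 11.0% without them. For CCAAT boxes they were 23.1% and 12.6%, beside 23.3% and 10.5%, and for GC boxes 24.3% and 11.3%, beside 20.2% and 11.7%. Genes are not replicates, so these shares are a description of 3 arrays and carry no test.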
